A study of Mus musculus with 51 samples.

Results

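The response of sensitized BALB/c lung to methylene diphenyl diisocyanate (MDI) was measured on 6 arrays, out of 51 in the series: 3 from mice given MDI through the airways and 3 from mice given a control solution. The arrays were chosen by their titles and every probe set was used. All mice of both groups were male BALB/c aged 6 to 8 weeks, and none received crofelemer, the chloride channel inhibitor given to other groups of the series. All of them, controls included, had first been sensitized by skin exposure to 1% MDI in acetone on a shaved back. On days 15, 16, 19 and 20 the MDI group received the products of MDI reacted together with glutathione (GSH), into the respiratory tract under isoflurane, while the control group received a solution in which MDI and GSH had been reacted separately. The comparison therefore sets an airway exposure against a control exposure in mice that were sensitized in both groups, and it does not measure sensitization itself. Perfused, lavaged lung was taken 48 hours after the last exposure, so cells washed out of the airways are not in these samples. The labels do not say whether the 3 samples of a group came from separate mice, and p-values then measure only the spread between these samples.

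MDI is a monomer used to make polyurethane and a known cause of occupational asthma. In allergic airway inflammation, T helper 2 cells and innate lymphoid cells release interleukins 4, 5 and 13. Interleukins 4 and 13 act through the transcription factor STAT6 to turn airway epithelial cells into mucus-secreting goblet cells and to drive macrophages into an alternatively activated state, while interleukin 5 and eotaxins recruit eosinophils. Chitinase-like proteins and resistin-like molecules are abundant products of such macrophages and epithelial cells in mice.

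The deposited values are log2 signals, 1 per probe set and array, for 22206 probe sets, of which 19572 carried 1 gene symbol. The arrays lay on 1 level, with means of 7.37 to 7.40 and lowest values of 2.29 to 2.54. A difference of 1 on this scale is 2-fold on the deposited scale. Arrays give no counts, and the number of arrays limits the precision. The labelled tissue was borne out by its markers: the alveolar type 2 gene Sftpc lay at 19.25 to 19.36 and the club cell gene Scgb1a1 at 19.78 to 19.90 on all 6 arrays. Control 1 stood apart in markers of fat. Ucp1, the uncoupling protein of brown fat, had 4.95, 4.92 and 4.84 on the MDI arrays and 12.48, 4.38 and 5.09 on control arrays 1 to 3. Of the 6 fat markers, 5 were higher on control 1 than on each of the other arrays (Ucp1, Adipoq, Fabp4, Plin1 and Cidea), and Lep lay at 3.49 to 4.12 everywhere. The summed log2 level of the 6 markers was 36.5 to 39.9 on the MDI arrays and 35.9 to 62.5 on the control arrays. Control 1 also had the highest sum of 10 cardiac muscle genes, 125.1, against 107.9 to 114.2 on the MDI arrays and 99.9 and 109.8 on the other controls. The part of this tissue in the results was not tested, and the gene lists whose counts change without control 1 are given both ways.

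**Figure D1:**
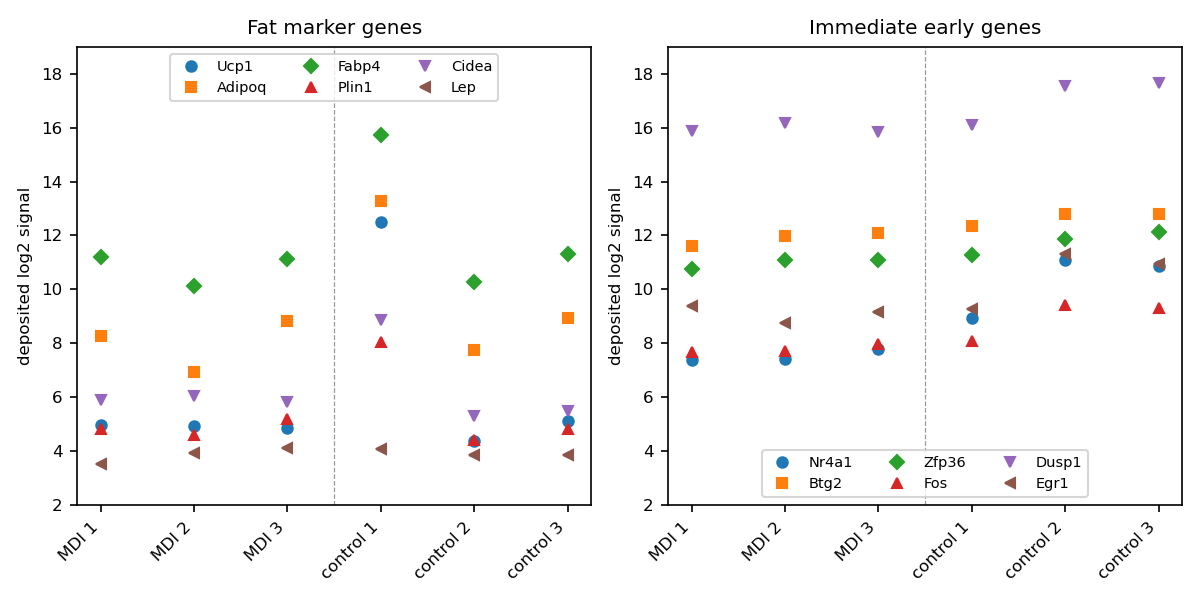
Deposited log2 signal (vertical axes) of 6 fat marker genes and 6 immediate early genes on each of the 3 MDI arrays and 3 control arrays of BALB/c lung. Control 1 carries high Ucp1 (12.48), Adipoq (13.29) and Fabp4 (15.73), and its Egr1 (9.25) and Dusp1 (16.12) lie near the MDI arrays rather than near controls 2 and 3.

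More probe sets were called higher than lower after airway MDI. A fit of these 6 arrays with limma called 269 probe sets at an adjusted p under 0.05, which is 1.21% of those tested. At an unadjusted p under 0.05 there were 2286, or 10.3%. The signal was higher after MDI for 206 of the 269 called (0.928% of those tested) and lower for 63 (0.284%). Rises were also larger than falls: 130 of the called probe sets were at least 2-fold higher and 36 at least 4-fold higher, against 17 and 2 for lower signal. The median difference was 1.13 for those called higher, -0.85 for those called lower and -0.0067 over all probe sets. In all 269 the MDI and control arrays did not overlap, as held for 14.3% of all probe sets, with MDI above in 7.48% and below in 6.83%. The rises also held more often: 86 of those called higher and 2 of those called lower were called again with any 1 array left out. The count itself was 364 without control 1 (234 higher and 130 lower), 259 without MDI 3, and between 99 (without control 3) and 140 (without MDI 2) without the others.

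**Figure D2:**
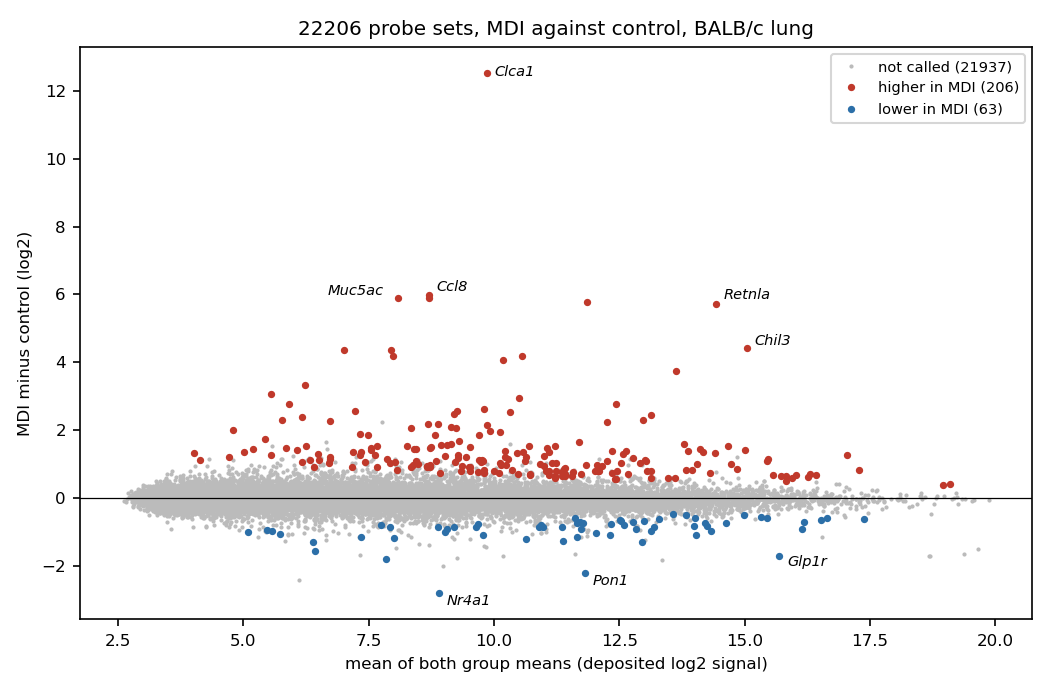
Difference between the MDI and control means (vertical axis, log2) against the mean of both group means (horizontal axis, deposited log2 signal) for 22206 probe sets, 3 arrays a group. Red points mark the 206 called higher and blue points the 63 called lower after MDI; Clca1 lies alone at 12.52, and the largest fall is Nr4a1 at -2.79.

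Mucus genes were among the largest rises. In these whole-lung samples, more or fewer cells of a type and more or less RNA per cell cannot be told apart. Clca1, a secreted goblet cell protein that processes mucus and modulates chloride conductance, had 16.28, 16.06 and 16.03 on the MDI arrays and 5.13, 2.29 and 3.39 on the control arrays. The groups were far apart, and the value of control 2 was the lowest of its whole array, and the difference was 12.52 ± 0.50 (log2, SE, n = 3 each; adjusted p = 1.77e-07). The files carry no detection call, and 10.3% of probe sets had a lower control mean than Clca1, so its control level was not shown to be above background and the size of its rise is not exact. Muc5ac, the gel-forming mucin typical of goblet cell metaplasia, had 10.84, 11.95 and 10.30 on the MDI arrays and 4.97, 4.52 and 5.93 on the control arrays, a rise of 5.89 ± 0.40 (adjusted p = 1.80e-05). Muc5b, the gel-forming mucin that resting airways also make, rose by 4.08 ± 0.29 (adjusted p = 2.09e-05), with 12.26, 12.39 and 12.04 on the MDI arrays and 9.00, 7.63 and 7.82 on the control arrays. No MDI array overlapped a control array in any of these 3 genes, as held for every called probe set.

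Of 19 measured genes of secreted mucus proteins, 9 rose, none fell and the other 10 missed the threshold, with a median difference of 0.81. Beside Clca1, Muc5ac and Muc5b these were Tff2, a trefoil peptide that binds mucins (4.36 ± 0.29), Fcgbp, a mucin-associated protein (4.19 ± 0.20), Reg3g, an antibacterial lectin (4.18 ± 0.50), Bpifb1, an airway defence protein of mucous cells (3.75 ± 0.51), Itln1, an intelectin (1.87 ± 0.30), and Lypd2 (1.52 ± 0.15). Bpifb1 had 15.78, 15.53 and 15.23 on the MDI arrays and 12.86, 10.12 and 12.31 on the control arrays. All but Itln1 kept the call whichever array was left out; Itln1 lost it without control 3 (adjusted p = 0.0739). The cell-surface mucin Muc1 was already high, at 17.67, 17.73 and 17.59 on the MDI arrays and 17.38, 17.37 and 17.51 on the control arrays (0.24 ± 0.09, adjusted p = 0.305).

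Most genes of the machinery behind mucus did not pass the test. Of 31 genes of goblet cell differentiation and mucin assembly, 2 rose and none fell, with a median of 0.15. The share called higher over all probe sets was 0.928%. Agr2, a disulfide isomerase needed to fold mucins, had 7.51, 6.79 and 6.50 on the MDI arrays and 5.10, 4.19 and 4.61 on the control arrays (2.30 ± 0.29, adjusted p = 0.00218). Creb3l4, a membrane-bound transcription factor of secretory cells, rose by 1.26 ± 0.19 (adjusted p = 0.00783). Spdef, the transcription factor that directs goblet cell fate, read 5.06, 5.97 and 5.45 on the MDI arrays and 4.85, 4.71 and 5.03 on the control arrays, which did not pass (adjusted p = 0.358). Among 22 genes of protein folding in the endoplasmic reticulum, Sdf2l1 alone passed (1.01 ± 0.21, adjusted p = 0.0439), and it lost the call without MDI 1, MDI 2, control 2 or control 3 (adjusted p up to 0.211). The chaperones Hspa5 (0.43 ± 0.10, adjusted p = 0.0597) and Calr (0.42 ± 0.10, adjusted p = 0.071) lay just outside, with MDI arrays above control arrays throughout.

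In ion transport, 1 of 27 genes rose and none fell, against 0.928% of all probe sets called higher and 0.284% lower. This was Slc26a4, the gene of pendrin, an apical anion exchanger that secretes bicarbonate and thiocyanate. It had 8.87, 10.39 and 8.31 on the MDI arrays and 5.12, 4.59 and 4.77 on the control arrays, a rise of 4.36 ± 0.41 (adjusted p = 0.000248) that held with any 1 array left out. Cftr, the chloride channel of airway epithelium, read 12.89, 12.99 and 12.57 on the MDI arrays and 12.84, 12.53 and 12.81 on the control arrays (0.09 ± 0.14, adjusted p = 0.922), and the groups overlapped. The potassium channel subunit Kcne3 (0.97 ± 0.23, adjusted p = 0.0728) and the chloride transporter Slc26a9 (-0.64 ± 0.18, adjusted p = 0.147) did not pass.

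**Figure D3:**
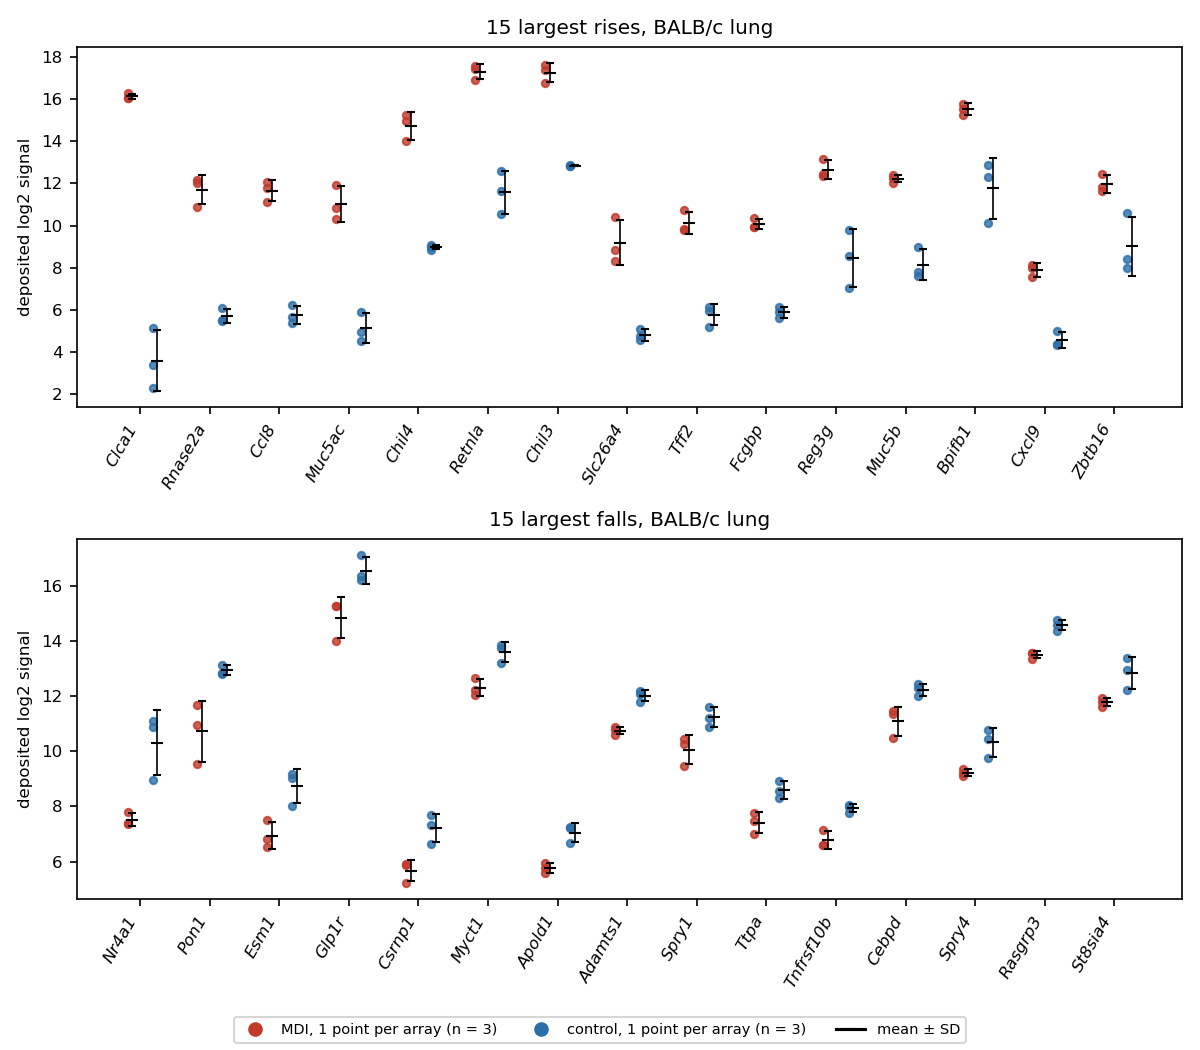
Deposited log2 signal (vertical axes) of the 15 genes with the largest rises and the 15 with the largest falls among called genes, MDI arrays (red) left of control arrays (blue), 1 point per array, bars for mean ± SD (n = 3 a group). Clca1 has the widest gap, and the gaps of the falls are narrower than those of most rises.

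Chitinase-like and resistin-like genes formed the next group. Chil3 and Chil4 encode chitinase-like lectins without chitin-cleaving activity, products of alternatively activated macrophages and airway epithelium, and Retnla encodes a resistin-like molecule of the same setting. Their promoters are shown because these 3 genes rose together by over 4 on the log2 scale and are textbook targets of STAT6. Each window runs from 250 bases before to 50 bases after the RefSeq start (GRCm38.p6), 5′ to 3′ on the gene's strand: Chil3 at chr3:106167515-106167814 on the minus strand, Chil4 at chr3:106219430-106219729 on the minus strand and Retnla at chr16:48842359-48842658 on the plus strand. Capitals mark a match to a STAT-type palindrome, which is TTC and GAA with any 3 or any 4 bases between them.
Chil3: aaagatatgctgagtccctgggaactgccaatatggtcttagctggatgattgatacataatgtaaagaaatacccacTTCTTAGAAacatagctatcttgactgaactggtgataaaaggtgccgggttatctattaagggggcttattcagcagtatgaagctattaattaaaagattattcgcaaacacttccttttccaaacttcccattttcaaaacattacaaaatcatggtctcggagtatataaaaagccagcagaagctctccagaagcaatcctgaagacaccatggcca
Chil4: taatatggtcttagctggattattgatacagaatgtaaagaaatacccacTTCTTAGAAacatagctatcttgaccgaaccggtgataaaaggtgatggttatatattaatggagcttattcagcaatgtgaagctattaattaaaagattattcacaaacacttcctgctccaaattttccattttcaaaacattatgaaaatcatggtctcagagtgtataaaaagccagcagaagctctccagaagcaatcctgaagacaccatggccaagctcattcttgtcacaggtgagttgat
Retnla: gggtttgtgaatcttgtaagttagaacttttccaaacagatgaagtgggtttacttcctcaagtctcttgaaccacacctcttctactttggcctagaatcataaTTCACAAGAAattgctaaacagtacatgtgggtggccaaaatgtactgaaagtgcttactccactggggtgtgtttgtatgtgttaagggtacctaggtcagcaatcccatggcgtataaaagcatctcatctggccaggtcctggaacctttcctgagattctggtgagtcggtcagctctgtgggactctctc

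Chil3 and Chil4 held the same match, TTCTTAGAA, which began 172 bases upstream of the start in Chil3 and 200 bases upstream in Chil4, and Retnla held TTCACAAGAA, beginning 145 bases upstream. The Chil3 and Chil4 windows shared 251 of 329 aligned positions (76.3%), so their matches are not independent of each other. Both motifs read the same on both strands and no match overlapped another. Over 32851 promoters of this length, 6.95% held the palindrome with 4 bases between and 8.30% the one with 3. Among 169 promoters of genes called higher the shares were 8.28% and 7.10%, and among 71 promoters of genes called lower 1.41% and 7.04%. TGACGTCA, the palindrome bound by CREB, was in 1.79% of all promoters, in 0.592% of the first set and in none of the 71, which says only that these letters are not in those windows. Of the 30 genes with the largest rises or falls, 21 had a promoter in the table used here. Among these, the palindrome with 3 bases between was also in a window of Bpifb1, which rose, and of Csrnp1 and Apold1, which fell. The windows of Rnase2a, Ccl8, Slc26a4, Fcgbp, Reg3g and Cxcl9, also among the largest rises, held neither palindrome. Binding of STAT6 to any match was not tested.

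Chil3 had 17.62, 17.37 and 16.77 on the MDI arrays and 12.87, 12.84 and 12.81 on the control arrays, a rise of 4.41 ± 0.17 (adjusted p = 1.77e-07). Chil4 had 14.95, 15.25 and 14.00 on the MDI arrays and 9.06, 8.87 and 8.98 on the control arrays, a rise of 5.76 ± 0.25 (adjusted p = 2.69e-07). In both genes the control arrays were tight and MDI 3 was the lowest MDI array. Retnla had 17.58, 17.43 and 16.88 on the MDI arrays and 12.58, 10.53 and 11.63 on the control arrays, a rise of 5.72 ± 0.38 (adjusted p = 1.44e-05). Chil3 and Chil4 are close paralogs, and how far their probe sets share signal was not tested. Of 10 measured genes of the 2 families, 5 rose and none fell, with a median of 0.80. The true chitinase Chia1 rose by 2.62 ± 0.34 (adjusted p = 0.00246), and Chil1, which the resting lung already makes, by 0.83 ± 0.14 (adjusted p = 0.0154). Chil1 lost the call without MDI 1, MDI 2, control 2 or control 3 (adjusted p up to 0.106). Retn, made by fat in mice, read 6.93, 5.69 and 6.85 on the MDI arrays and 10.74, 6.29 and 7.42 on control arrays 1 to 3; its difference was -1.66 ± 0.83 with all arrays and -0.36 ± 0.40 without control 1.

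Chemokine calls were mostly of ligands. Of 35 ligands, 8 rose, none fell and 27 did not pass, with a median of 0.24. Ccl8, a chemokine that draws CCR8-bearing T helper 2 cells in mice, had 11.80, 12.06 and 11.13 on the MDI arrays and 6.23, 5.65 and 5.40 on the control arrays, a rise of 5.90 ± 0.26 (adjusted p = 2.76e-07). Cxcl9, an interferon-induced ligand of CXCR3, had 8.01, 8.14 and 7.55 on the MDI arrays and 5.02, 4.37 and 4.33 on the control arrays, a rise of 3.33 ± 0.24 (adjusted p = 3.10e-05). The groups stood well apart in both Ccl8 and Cxcl9. Of 25 interferon-stimulated genes, Cxcl9 alone rose and none fell, with a median of 0.10. The shares called over all probe sets were 0.928% higher and 0.284% lower. The monocyte attractant Ccl12 rose by 2.40 ± 0.21 and the myeloid chemokines Ccl9 and Ccl6 by 2.31 ± 0.23 and 1.39 ± 0.14. Ccl17 and Ccl22, the CCR4 ligands that attract T helper 2 and regulatory T cells, rose by 1.86 ± 0.19 and 2.08 ± 0.21. Cxcl17, a mucosal chemokine, rose by 1.16 ± 0.21 and was the only one of the 8 to lose the call when 1 array was left out (MDI 1, MDI 3, control 2 or control 3, adjusted p up to 0.131).

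Ccl11 (eotaxin), counted here with the eosinophil genes, had 10.09, 11.53 and 10.04 on the MDI arrays and 8.21, 7.61 and 8.16 on the control arrays, a rise of 2.56 ± 0.34 (adjusted p = 0.00257). The other eotaxin, Ccl24, lay at 4.80 to 4.90 on the MDI arrays and 4.59 to 5.00 on the control arrays. Of 21 chemokine receptors, Xcr1, the receptor of cross-presenting dendritic cells, alone passed (1.37 ± 0.21, adjusted p = 0.00824), and it lost the call without MDI 1 or control 3 (adjusted p up to 0.0549). Ccr2, which brings monocytes out of bone marrow, missed it at 0.73 ± 0.17 (adjusted p = 0.0772). By limma, 0.928% of all probe sets were called higher and 0.284% lower.

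The type 2 cytokines themselves were near the bottom of the scale. Il4 read 4.79, 4.46 and 4.62 on the MDI arrays and 4.45, 4.51 and 4.54 on the control arrays (0.12 ± 0.17, adjusted p = 0.912). Il5 (-0.17 ± 0.23) and Il13 (0.16 ± 0.18) were likewise low in both groups, and none of the 3 separated them. The alarmin Il33, which epithelial and type 2 alveolar cells hold ready and which activates innate lymphoid cells, was the 1 of 22 genes of this list that rose: 13.43, 13.54 and 13.39 on the MDI arrays, against 12.44, 12.77 and 12.77 on the control arrays (0.79 ± 0.12, adjusted p = 0.00824, kept with any 1 array left out). These cytokines, Ccl24, Epx, Prg2, Siglecf, S100a8, Csf3r and the tissue markers were named after their values were seen. The share called higher over all probe sets, beside the 1 of 22 here, was 0.928%.

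Most eosinophil genes did not pass. Of 16 measured, 2 rose and none fell, with a median of 0.17. Over all probe sets, 0.928% were called higher. Rnase2a, a ribonuclease of the eosinophil-associated family that macrophages also make in mice, had 12.03, 12.15 and 10.90 on the MDI arrays and 6.12, 5.55 and 5.49 on the control arrays, a rise of 5.97 ± 0.30 (adjusted p = 7.47e-07). The granule proteins of eosinophils were at the low end in both groups: Epx read 3.56, 4.08 and 3.57 on the MDI arrays and 3.80, 3.66 and 3.88 on the control arrays, and Prg2 lay at 4.09 to 4.96 on the MDI arrays and 4.09 to 4.70 on the control arrays. Siglecf, a surface receptor of eosinophils and alveolar macrophages, differed by 0.30 ± 0.13 (adjusted p = 0.439). Adgre1, which encodes a surface receptor of macrophages too, lay just outside the threshold at 1.02 ± 0.22 (adjusted p = 0.0516).

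Some macrophage genes rose, while most listed members did not pass. Of 28 genes of lipid-handling and lysosomal macrophages, 11 rose and none fell, with a median of 0.56. Mmp12, the macrophage elastase, had 13.96, 15.37 and 13.74 on the MDI arrays and 12.30, 11.88 and 11.52 on the control arrays, a rise of 2.46 ± 0.34 (adjusted p = 0.00383). Gpnmb, a glycoprotein of lipid-laden macrophages, rose by 2.15 ± 0.26 (adjusted p = 0.00155), and Trem2, a lipid-sensing receptor, had 8.26, 8.67 and 7.91 on the MDI arrays and 6.09, 6.28 and 6.80 on the control arrays, a rise of 1.89 ± 0.25 (adjusted p = 0.00244). MDI 2 was the highest array in all 3 of these genes. The protease Mmp19 (1.54 ± 0.20), cathepsin Ctsz (1.29 ± 0.16) and galectin Lgals3 (1.23 ± 0.16) also held with any 1 array left out. Ctsk, Ms4a7, Lgmn, Ctsb and Apoe rose by 0.59 to 1.67 and each lost the call without control 3, with adjusted p up to 0.178. The count was 13 without control 1 and 6 without control 3.

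Of 25 genes of alternatively activated and resident macrophages, 6 rose and none fell, with a median of 0.47. The haemoglobin scavenger receptor Cd163 had 7.01, 6.74 and 6.61 on the MDI arrays and 5.60, 5.26 and 5.21 on the control arrays (1.43 ± 0.20, adjusted p = 0.00486). The mannose receptor Mrc1 had 14.63, 14.93 and 14.12 on the MDI arrays and 13.59, 13.49 and 13.58 on the control arrays (1.01 ± 0.17, adjusted p = 0.0136). The lectin Mgl2, the folate receptor Folr2 and the growth factor Igf1 rose by 1.20 ± 0.20, 1.36 ± 0.25 and 1.17 ± 0.20. Beside Ccl6, Cd163 alone of the 6 kept its call whichever array was left out, and the count lay between 2 (without control 2) and 7 (without MDI 3 or control 1). Arg1, the arginase by which alternatively activated mouse macrophages are often recognised, read 5.22, 6.56 and 5.21 on the MDI arrays and 5.22, 4.81 and 4.52 on the control arrays (0.81 ± 0.34, adjusted p = 0.417). MDI 2 stood above the other arrays, and MDI 1 and MDI 3 lay level with control 1.

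Complement and Fc receptors serve the uptake of opsonized material. Of 18 complement genes, 7 rose, none fell and 11 did not pass, with a median of 0.37. The 3 chains of C1q, which starts the classical pathway and is made by macrophages, moved alike: C1qa rose by 2.18 ± 0.22, C1qc by 2.18 ± 0.23 and C1qb by 1.99 ± 0.21. C1qa had 9.78, 10.21 and 9.96 on the MDI arrays and 8.24, 7.32 and 7.84 on the control arrays (adjusted p = 0.000477). The anaphylatoxin receptor C3ar1 rose by 2.49 ± 0.28 and properdin, Cfp, by 1.32 ± 0.19. Cfb (1.12 ± 0.22) and C1s1 (0.66 ± 0.14) rose as well, but each lost the call when any of 5 or 6 single arrays was left out (adjusted p up to 0.224).

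Of 10 Fc receptors, 4 rose and none fell, with a median of 0.62. Pigr, which carries IgA across epithelium into the airway, had 14.12, 13.99 and 13.36 on the MDI arrays and 11.58, 10.81 and 10.77 on the control arrays, a rise of 2.77 ± 0.23 (adjusted p = 0.000109). Fcgr2b, the inhibitory IgG receptor, rose by 2.25 ± 0.21 and Fcgr3, an activating one, by 1.60 ± 0.13, both kept with any 1 array left out. Fcgrt, the neonatal Fc receptor, rose by 0.58 ± 0.12 (adjusted p = 0.0442) and lost the call without MDI 1, MDI 2, control 2 or control 3 (adjusted p up to 0.199). The chains of the high-affinity IgE receptor, Fcer1a (0.20 ± 0.24) and Ms4a2 (0.23 ± 0.22), lay between 3.88 and 5.36 on all 6 arrays.

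**Figure D4:**
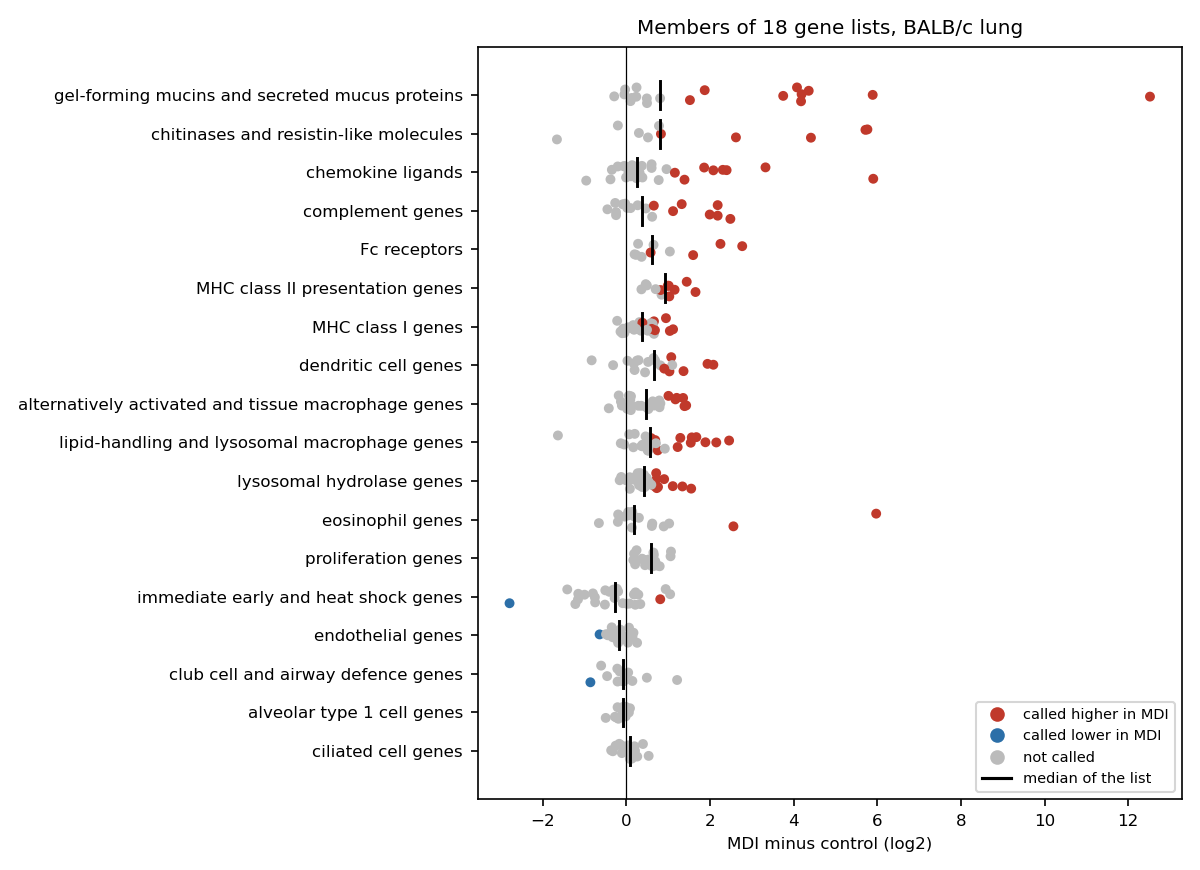
Difference between MDI and control (horizontal axis, log2) for each measured member of 18 gene lists in BALB/c lung, with the median of each list as a black bar and vertical scatter for legibility. Called genes are red (higher) or blue (lower), and alveolar type 1 and ciliated cell genes hold no call and centre near 0. The lists shown and their order were set by hand. MHC class I and lysosomal hydrolase genes were listed after values were seen.

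Of 12 genes of the MHC class II pathway, 7 rose, none fell, 5 did not pass, and all 12 had a positive difference, with a median of 0.92; the 7 calls stood with any 1 array left out. H2-Eb1 had 12.52, 12.65 and 12.42 on the MDI arrays and 11.02, 10.90 and 10.71 on the control arrays, a rise of 1.65 ± 0.13 (adjusted p = 5.88e-05). The other class II chains H2-Aa and H2-Ab1 rose by 1.15 ± 0.11 and 1.03 ± 0.12. Cathepsin S (Ctss), which degrades the invariant chain, rose by 1.44 ± 0.13, the peptide-loading chains H2-DMb1 and H2-DMb2 by 0.99 ± 0.13 and 0.82 ± 0.12, and the thiol reductase Ifi30 by 1.01 ± 0.12. For H2-Aa the MDI arrays read 16.01, 16.10 and 15.99 and the control arrays 15.08, 14.79 and 14.77, each group tighter than the gap between them. Ciita, the master regulator of class II transcription, differed by 0.70 ± 0.19 (adjusted p = 0.133).

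Dendritic cell genes followed, with 6 of 19 higher, none lower and a median of 0.65. The integrin Itgax (CD11c), shared with alveolar macrophages, had 11.30, 11.54 and 10.41 on the MDI arrays and 9.37, 9.30 and 8.76 on the control arrays (1.94 ± 0.26, adjusted p = 0.00322). Itgax and Ccl22 kept their call whichever array was left out, whereas Xcr1, the costimulator Cd80 (1.03 ± 0.20), the lectin Cd209a (1.07 ± 0.21) and the integrin Itgae (0.91 ± 0.19) did not, with adjusted p up to 0.179. Siglech, a receptor of plasmacytoid dendritic cells, differed by -0.83 ± 0.21 without passing (adjusted p = 0.103).

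Most lymphocyte, mast cell and neutrophil genes did not pass, and over all probe sets 0.928% were called higher and 0.284% lower. Of 20 T-cell genes, Icos, a costimulator of activated and helper T cells, alone passed: 9.64, 9.70 and 9.61 on the MDI arrays, against 8.28, 8.32 and 8.58 on the control arrays (1.26 ± 0.15, adjusted p = 0.00151). Cd3e, a part of the T-cell receptor complex, read 10.56, 11.23 and 10.61 on the MDI arrays and 9.55, 10.12 and 10.55 on the control arrays (0.73 ± 0.24, adjusted p = 0.272). Of the 20 T-cell genes, 16 had a positive difference and 4 a negative one, with a median of 0.435. By limma 8 of them had an unadjusted p under 0.05, against 10.3% of all probe sets. Their summed log2 level was 139.9 to 140.8 on the MDI arrays and 130.4 to 136.9 on the control arrays. Neither the 14 B-cell and plasma cell genes nor the 16 mast cell and basophil genes held a call by limma, though 2 and 4 of them had an unadjusted p under 0.05. Without control 1, 1 mast cell gene was called higher and 1 lower: the mast cell protease Cpa3 at 1.43 ± 0.26 (adjusted p = 0.0168) and the stem cell factor receptor Kit at -0.65 ± 0.11 (adjusted p = 0.0104). Jchain, which joins polymeric IgA and IgM, read 12.87, 13.49 and 11.66 on the MDI arrays and 11.40, 11.47 and 11.73 on the control arrays, so MDI 3 lay among the controls (1.14 ± 0.34, adjusted p = 0.174). Of 17 neutrophil genes, Lcn2 alone rose (1.27 ± 0.15, adjusted p = 0.00144), a siderophore-binding protein that airway epithelium makes too. Control 2 had the highest values of S100a8 (10.25) and Csf3r (12.86), against 8.28 to 9.32 and 11.05 to 11.66 on the MDI arrays and 7.15 to 8.23 and 10.59 to 11.17 on the other controls.

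Further gene families were listed after their values had been seen and are given as description. Of 27 MHC class I genes, 7 rose, among them H2-D1 (1.12 ± 0.13), H2-K1 (0.66 ± 0.11), the peptide transporter Tap1 (0.61 ± 0.12) and B2m (0.38 ± 0.08), and H2-D1 alone kept the call whichever array was left out. Class I genes are close in sequence, so their probe sets may share signal. Of 31 lysosomal genes, 9 rose, from 0.68 for the saposin precursor Psap to 1.55 for the acid phosphatase Acp5, with a median of 0.42 over the list. Among 19 Toll-like receptor and phagocyte oxidase genes, 5 rose, namely Tlr8, Ncf1, Cybb, Unc93b1 and Slc15a3, by 0.64 to 1.08, and each lost the call without at least 1 array (adjusted p up to 0.177). The tetraspanners Ms4a6d (1.85 ± 0.21) and Ms4a8a (1.50 ± 0.20) and the lectin Cd209d (2.02 ± 0.26) rose and kept their calls.

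Genes of dividing cells gave no call. All 22 proliferation genes had a positive difference, with a median of 0.58, but none passed limma's test and 11 had an unadjusted p under 0.05. Their summed log2 level was 168.1, 168.1 and 155.2 on the MDI arrays and 153.6, 147.3 and 154.5 on the control arrays. MDI 3 thus lay close to controls 1 and 3, and genes measured on the same arrays are not independent of each other. Mki67 read 11.28, 11.83 and 10.63 on the MDI arrays and 10.44, 9.61 and 10.52 on the control arrays (1.06 ± 0.29, adjusted p = 0.138). Of 53 replication-dependent histone genes, a list also drawn up after seeing values, 50 were positive (median 0.43) and 5 histone H3 genes rose by 0.79 to 0.95. H3c14 and H3c15 had the same value on every array, so these 2 are 1 measurement, and the histone count was 0 without MDI 1, MDI 2 or control 2 and 11 without MDI 3.

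Enzymes of small molecules changed singly. By limma, 0.928% of all probe sets were called higher and 0.284% lower. Hal, the histidase that turns histidine into urocanate, had 8.15, 9.02 and 8.41 on the MDI arrays and 6.41, 5.85 and 5.60 on the control arrays, a rise of 2.57 ± 0.27 (adjusted p = 0.000477) that held with any 1 array left out. Among 22 amino acid metabolism genes it was joined by the arginine transporter Slc7a2 (0.97 ± 0.15) and kynureninase, Kynu (1.28 ± 0.25), while Ddah1, which breaks down asymmetric dimethylarginine, fell by 0.64 ± 0.13. Slc7a2 lost the call without MDI 1 or control 3, and Kynu and Ddah1 without 5 and 6 single arrays (adjusted p up to 0.165 for the 3). Of 30 eicosanoid genes, thromboxane synthase Tbxas1 rose by 1.48 ± 0.18 (adjusted p = 0.00135). Alox15, a lipoxygenase induced by interleukins 4 and 13, had 7.72, 8.96 and 8.05 on the MDI arrays and 6.44, 6.93 and 7.14 on the control arrays, which passed narrowly (1.41 ± 0.30, adjusted p = 0.0469) and lost the call when any array other than MDI 1 was left out (adjusted p up to 0.126).

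Because MDI was given as a glutathione conjugate, the glutathione and oxidant defence genes were read as a list: 1 of 34 rose, none fell, and the median was -0.09. The one was Gsto1, a glutathione transferase of the omega class (1.59 ± 0.18, adjusted p = 0.000839). The shares called over all probe sets were 0.928% higher and 0.284% lower. Gclc, the catalytic subunit that makes glutathione, read 13.33, 13.40 and 12.93 on the MDI arrays and 12.61, 12.55 and 12.71 on the control arrays (0.60 ± 0.14, adjusted p = 0.0653). None of 20 cytochrome P450 genes passed limma's test, with 8 at an unadjusted p under 0.05. Cyp2f2, the abundant P450 of club cells, read 18.54, 18.32 and 18.60 on the MDI arrays and 18.79, 19.05 and 19.00 on the control arrays (-0.46 ± 0.10, adjusted p = 0.0522). Without control 1 it was called lower (-0.54 ± 0.10, adjusted p = 0.023), as was Gstm1, a glutathione transferase (-0.57 ± 0.12, adjusted p = 0.0456, against -0.48 ± 0.12 and 0.0968 with all arrays).

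Among 24 receptors for neurotransmitters, peptides and irritants, 1 rose and 1 fell, against 0.928% and 0.284% of all probe sets. Tacr1, the substance P receptor, had 5.89, 6.16 and 5.71 on the MDI arrays and 4.25, 4.58 and 4.62 on the control arrays (1.44 ± 0.20, adjusted p = 0.00427), kept with any 1 array left out. Glp1r, the receptor of glucagon-like peptide 1, which the mouse lung expresses strongly, had 15.26, 13.99 and 15.27 on the MDI arrays and 16.19, 16.34 and 17.11 on the control arrays. It fell by 1.71 ± 0.31 (adjusted p = 0.0205) and lost the call without control 2 or control 3 (adjusted p up to 0.126). Trpa1, the irritant channel of sensory nerves, lay at 3.22 to 3.46 on the MDI arrays and 3.09 to 3.77 on the control arrays, near the lowest values of the arrays.

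Most genes that identify the resident lung cells did not pass. The shares called over all probe sets were 0.928% higher and 0.284% lower. None of 13 alveolar type 1 genes or 19 ciliated cell genes passed limma's test, of which 1 and 0 had an unadjusted p under 0.05, with medians of -0.08 and 0.08. Of 17 alveolar type 2 genes, Il33 and Chil1 rose and none fell, with a median of -0.02. Sftpc differed by -0.02 ± 0.07 and Scgb1a1 by -0.05 ± 0.07. Of 13 club cell and airway defence genes, Scgb1c1, a secretoglobin, fell by 0.86 ± 0.18 (adjusted p = 0.04) and lost the call without any 1 of the 6 arrays (adjusted p up to 0.172). Scgb3a1, a secretoglobin of airway secretory cells, read 16.05, 14.80 and 15.51 on the MDI arrays and 15.21, 13.16 and 14.35 on the control arrays (1.21 ± 0.42, adjusted p = 0.286), and it passed without control 1 (1.70 ± 0.35, adjusted p = 0.0322). Of 21 endothelial genes, Kdr, the main VEGF receptor, fell: 16.27, 16.04 and 16.29 on the MDI arrays, against 16.68, 16.82 and 17.02 on the control arrays (fell by 0.64 ± 0.11, adjusted p = 0.0163). The call ended without MDI 1, MDI 2, control 2 or control 3 (adjusted p up to 0.108), and the list had a median of -0.18. In the matrix and fibroblast list, 1 of 33 rose, Col6a5, a collagen VI chain (1.32 ± 0.22, adjusted p = 0.0138; lost without MDI 1, MDI 2 or control 2, adjusted p up to 0.0638). Without control 1 there were 3, with the fibrillar collagens Col3a1 (1.33 ± 0.13, adjusted p = 0.000356, against 0.98 ± 0.23 and 0.0755 with all arrays) and Col1a1 (1.01 ± 0.15, adjusted p = 0.006, against 0.72 ± 0.22 and 0.196).

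The falls were fewer, and 2 of the 15 largest kept their call whichever array was left out, against 14 of the 15 largest rises, where the exception was Zbtb16. Nr4a1, an orphan nuclear receptor induced within minutes of a stimulus, had 7.37, 7.39 and 7.78 on the MDI arrays and 8.95, 11.10 and 10.87 on the control arrays. It fell by 2.79 ± 0.43 (adjusted p = 0.00808), and the call ended without control 3 (adjusted p = 0.064). Pon1, paraoxonase, which hydrolyses oxidized lipids, had 10.94, 9.53 and 11.68 on the MDI arrays and 12.85, 13.14 and 12.81 on the control arrays and fell by 2.22 ± 0.39 (adjusted p = 0.0178; lost without MDI 1, control 2 or control 3, adjusted p up to 0.0894). Adamts1, a secreted protease, and Rasgrp3, an exchange factor of Ras, were the 2 of the 15 largest falls that kept the call throughout. Adamts1 had 10.76, 10.60 and 10.88 on the MDI arrays and 11.80, 12.17 and 12.07 on the control arrays (fell by 1.27 ± 0.14, adjusted p = 0.00082), and Rasgrp3 fell by 1.07 ± 0.12 (adjusted p = 0.000884).

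The other large falls were Esm1, an endothelial proteoglycan (fell by 1.80 ± 0.31), Csrnp1, a transcription factor (1.54 ± 0.28 lower), Myct1 (1.30 ± 0.19 lower) and Apold1 (1.29 ± 0.22 lower), which endothelial cells express, and Spry1 and Spry4, inhibitors of receptor tyrosine kinase signalling (1.19 ± 0.25 and 1.09 ± 0.22 lower). Ttpa, Tnfrsf10b, Cebpd and St8sia4 fell by 1.18, 1.16, 1.14 and 1.07. In all of these, as in every called probe set, the MDI and control arrays did not overlap. Each of these genes lost the call by limma without at least 1 array, with adjusted p up to 0.219.

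Immediate early genes depended on control 1. With all arrays, 1 of 27 immediate early and heat shock genes fell (Nr4a1) and 1 rose (the chaperone Hsph1, 0.81 ± 0.13), with a median of -0.28. The shares called over all probe sets were 0.284% lower and 0.928% higher. Without control 1, 10 of the 27 listed genes fell and 1 rose. Fos had 7.66, 7.69 and 7.97 on the MDI arrays and 8.09, 9.41 and 9.29 on control arrays 1 to 3, and Dusp1, a phosphatase that ends MAP kinase signalling, had 15.87, 16.17 and 15.85 on the MDI arrays and 16.12, 17.54 and 17.68 on the control arrays. Control 1 lay close to the MDI arrays in both, and in Egr1 it lay among them (9.37, 8.73 and 9.16 on the MDI arrays, against 9.25, 11.32 and 10.93 on the control arrays). With all arrays the 3 genes did not pass: Fos differed by -1.16 ± 0.30 (adjusted p = 0.103), Dusp1 by -1.15 ± 0.31 (adjusted p = 0.125) and Egr1 by -1.41 ± 0.41 (adjusted p = 0.162). Without control 1 their differences were -1.58 ± 0.19 (adjusted p = 0.00126), -1.65 ± 0.12 (adjusted p = 2.57e-05) and -2.04 ± 0.21 (adjusted p = 0.000371). Why control 1 differed from controls 2 and 3 was not tested; it is also the array with the fat markers.

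The glucocorticoid-responsive genes showed the same dependence. Zbtb16, a transcription factor induced by glucocorticoids, had 12.47, 11.81 and 11.66 on the MDI arrays and 10.62, 8.01 and 8.44 on control arrays 1 to 3, a rise of 2.96 ± 0.51 (adjusted p = 0.0156). Fkbp5, a cochaperone of the glucocorticoid receptor, had 11.59, 11.82 and 11.35 on the MDI arrays and 10.60, 8.32 and 8.20 on the control arrays, a rise of 2.55 ± 0.48 (adjusted p = 0.0257). Control 1 lay between the groups in both. These were the 2 of 14 listed genes that passed, and none fell. Without control 1 there were 5 rises, joined by Mt2 (1.53 ± 0.21), Cdkn1a (0.82 ± 0.14) and Mt1 (0.70 ± 0.14), and 1 fall, Sgk1. Without MDI 1, MDI 2, control 2 or control 3 neither Zbtb16 nor Fkbp5 passed, and Fkbp5 missed without MDI 3 too (adjusted p up to 0.148). Summed over the 14 genes, the log2 level was 175.0 to 176.5 on the MDI arrays and 176.4, 165.4 and 163.8 on control arrays 1 to 3.

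Other lists moved by fewer genes without control 1. The chemokine receptor Cxcr4 was called lower (-0.60 ± 0.13, adjusted p = 0.0437, against -0.40 ± 0.17 and 0.416 with all arrays). The surfactant protein gene Sftpd was called higher (0.66 ± 0.15, adjusted p = 0.0476), which made 3 alveolar type 2 genes. Pparg, a nuclear receptor that alveolar macrophages and fat cells depend on, was called higher (1.13 ± 0.18, adjusted p = 0.00685, against 0.63 ± 0.33 and 0.577), as were the lipid droplet gene Plin2 (0.74 ± 0.16) and the galectin Lgals1 (0.72 ± 0.15). Fat markers move with the control group here through the same array, and their part was not tested. Complement had 5 calls, without C1s1 and Cfb, dendritic cells 5, without Itgae, and eicosanoids 1, without Alox15. Amino acid metabolism had 2 rises and no fall, without Kynu and Ddah1, and Scgb1c1 was not called (adjusted p = 0.0802). Among the lists drawn up after values were seen, MHC class I had 6 calls, histones 4, Toll-like receptor and oxidase genes 2 and lysosomal genes 10. The genes of this paragraph and the other genes gained without control 1 were chosen after their values were seen.

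C57BL/6 mice under the same sensitization and exposure, 13 MDI and 6 control arrays, served to see how far the BALB/c differences were shared; these groups have their own controls. Of the 206 probe sets called higher in BALB/c, 184 (89.3%) had a positive difference in C57BL/6, with a median of 0.84 there and 1.13 in BALB/c. Of the 63 called lower, 60 (95.2%) had a negative one, with medians of -0.64 and -0.85. These probe sets were chosen by their BALB/c difference alone, so these medians do not compare the size of the response between strains. Over all probe sets, 51.4% were positive in C57BL/6 and 48.6% negative. Array means were 7.37 to 7.40 in BALB/c and 7.48 to 7.51 in C57BL/6. Whether both strains were normalized together is not stated, and only differences between MDI and control within a strain were compared. A fit of the 25 arrays for the BALB/c difference minus the C57BL/6 difference called 2 probe sets (0.00901%), 1 in each direction (0.0045% each), while 1639 had an unadjusted p under 0.05.

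The histidase gene Hal differed between the strains. It lay at 3.92 to 4.90 (median 4.33) on the 13 C57BL/6 MDI arrays and 3.73 to 4.22 (median 4.08) on the 6 C57BL/6 controls, a difference of 0.30 against 2.57 in BALB/c. The BALB/c difference was larger by 2.28 ± 0.28 (adjusted p = 7.90e-05). The C57BL/6 levels of Hal were not shown to be above background, so the size of this difference is not exact. A limma fit with the replicate number as a block kept only the arrays whose number occurs in every group, so it used fewer arrays. There the Hal difference was 2.24 ± 0.41 and missed the call (adjusted p = 0.124). Pla2g4c, a cytosolic phospholipase A2, differed in the opposite direction. It read 6.43 to 8.88 (median 7.60) on the C57BL/6 MDI arrays and 3.44 to 4.24 (median 3.79) on their controls, a difference of 3.74, whereas BALB/c means were 3.26 after MDI and 3.19 in controls (0.07 ± 0.19). The BALB/c difference minus the C57BL/6 difference was -3.67 ± 0.49 (adjusted p = 0.00028). In BALB/c 3.71% of probe sets had a lower mean after MDI and 2.57% a lower mean in controls, so Pla2g4c was not shown to be above background there, and the size of this difference is not exact.

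The mucus and chitinase-like genes did not pass this test. Clca1 had 17.52 ± 0.78 on the C57BL/6 MDI arrays and 9.40 ± 2.48 on the C57BL/6 controls (SD, n = 13 and 6), and the difference between the strains' effects was 4.40 ± 1.13 (adjusted p = 0.374). For Chil3 it was 2.05 ± 0.41 (adjusted p = 0.107), for Chil4 1.81 ± 0.58 (adjusted p = 0.49), for Muc5b 2.13 ± 0.68 (adjusted p = 0.49) and for Retnla 0.08 ± 0.70 (adjusted p = 0.993). Chia1 and Alox15 lay on the other side, at -2.23 ± 0.74 and -2.18 ± 0.61 (adjusted p = 0.5 and 0.419). In these data a gene that missed the test has not been shown to respond alike in both strains.

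**Figure D5:**
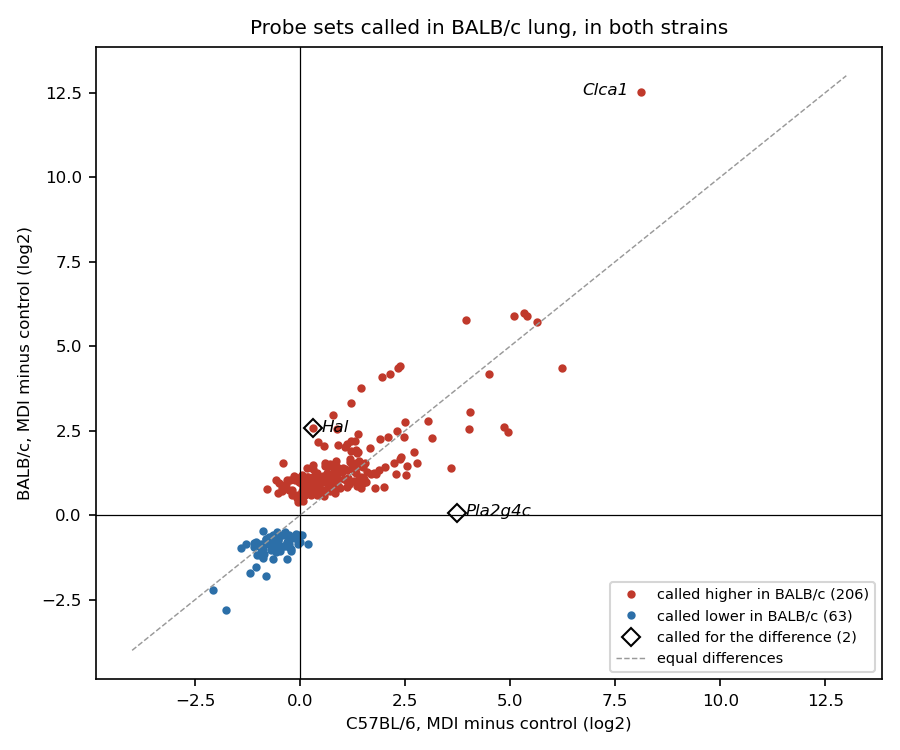
BALB/c difference between MDI and control (vertical axis, log2) against the C57BL/6 difference (horizontal axis, log2) for the 269 probe sets called in BALB/c and the 2 called for the difference between strains. Most points lie in the quadrants of equal sign; Hal stands near 0 on the C57BL/6 axis and Pla2g4c near 0 on the BALB/c axis.

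Just inside the threshold were B2m and Golm1 (both adjusted p = 0.0498) and Acoxl (0.0496), and just outside were Adgre1 (0.0516), Pglyrp1 and H2bc3 (both 0.0516). Of the 269 called probe sets, 29 carried no gene symbol and are not named here.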

How the data were processed

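Values were used as deposited: the authors deposited log2 signals written with Transcriptome Analysis Console, per the submitters' processing notes. Its version and any background correction or normalization were not given in the sources used here. That they are log2 was inferred from the values (highest 20.91); centring is unknown, and the direction is as deposited. Total RNA, 250 ng per sample, was labelled with biotin, per the labels' protocols. Groups came from the array titles.

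Gene names came from the platform annotation, and all 19572 symbols were matched to RefSeq by gene ID. Of 55 genes with over 1 probe set, the brightest stood for the gene. Differences are MDI minus control, fitted with limma 3.58.1 in R 4.3.3 (2-sided, intensity trend in the moderated variance, 4 residual and 7.73 prior degrees of freedom) and adjusted over 22206 probe sets by Benjamini-Hochberg; errors are moderated SE. The strain difference was fitted on 25 arrays in the same way. Plots used matplotlib 3.10.9 and promoter alignments Biopython 1.88, both under Python 3.11.15.

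The arrays were no duplicates (pairwise r of 0.989 to 0.996). Same-numbered MDI and control arrays did not deviate together (r of 0.026, -0.14 and -0.128), so numbers were not used as pairs. On simulated data, 93% of 2-fold and 99% of 4-fold changes were recovered with 17 false calls for MDI against control, and 51% and 96% with 9 false calls for the strain difference. The simulated noise was normal, independent between probe sets and drawn with the moderated variances of the fit. It held no outlying array such as control 1, so these shares do not give the recovery in the real data.

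The arrays, 42 gene lists, tests and named genes were chosen with earlier results of these data known, and 6 further lists after values were seen. Named were the 15 largest rises and falls among called genes, called members and up to 6 others of each list described, 12 chosen airway genes, and the genes called for the strain difference; further names are marked. Alternatives changed the variance trend, moderation, normalization, filter, floor, weights, model, block and arrays. Left out were 2 arrays of the series whose labels contradict each other.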

Additional observations from a re-analysis of the deposited data

Results flagged for a closer look

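In the comparison of strains, 2 genes passed the test of the difference between the MDI effects, BALB/c minus C57BL/6. Hal, histidase, had a difference between effects of 2.28 ± 0.28 (limma, adjusted p = 7.90e-05). It was higher after MDI in BALB/c lung by 2.57 (means 8.53 after MDI and 5.95 in controls) and in C57BL/6 lung by 0.30 (means 4.35 after MDI and 4.05 in controls). These C57BL/6 levels were not shown to be above background. Pla2g4c, a cytosolic phospholipase A2, had a difference between effects of -3.67 ± 0.49 (adjusted p = 0.00028). Its means in C57BL/6 lung were 7.56 after MDI and 3.82 in controls, and in BALB/c lung 3.26 after MDI and 3.19 in controls, levels not shown to be above background.

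Pla2g4c kept the call with any 1 BALB/c array left out, with differences of -3.80 to -3.48 and adjusted p of 0.00111 to 0.00502. Hal did too, with differences of 2.03 to 2.50, but missed it with the replicate number as a block (2.24 ± 0.41, adjusted p = 0.124). That fit also kept only the arrays whose number occurs in every group. The C57BL/6 MDI and control arrays did not overlap for Pla2g4c and overlapped for Hal. The Hal control level also differed between the strains (5.95 in BALB/c and 4.05 in C57BL/6), and whether the arrays of the 2 strains were normalized together is not given in the sources used here.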

How the results depend on the processing

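The number of probe sets called for MDI against control in BALB/c lung (269, of which 206 higher and 63 lower) moved with the model and the arrays. It was 132 (115 higher, 17 lower) without the intensity trend, 67 (58 and 9) in a model of all 8 groups, 10 (10 and 0) with values below 5 raised to 5, and 147 (130 and 17) with a minimum difference of 1. The floor leaves many probe sets with no variance; limma then had 1869 at an unadjusted p under 0.05. With probe sets at 5 on every array left out as well, a setting chosen after seeing the data, the count was 117 (103 and 14). Leaving out 1 array gave 99 to 364 calls, 96 to 234 higher and 3 to 130 lower. Robust moderation, median centring, quantile normalization, the filter on dim probe sets, array weights and the replicate block gave 250 to 313. The replicate block gave 283 calls (207 and 76). Whether the numbers pair the samples was not shown, and the main fit did not use them as pairs. No named gene changed sign with a call under any of these settings, and 88 probe sets stayed called with any 1 array left out.

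For the strain difference (2 calls, 1 higher and 1 lower), quantile normalization gave 4 (3 and 1), array weights 41 (32 and 9), the first block of records 6 (4 and 2) and the replicate block 6 (5 and 1). Under the replicate block Hal missed the call with a difference about as large (2.24 ± 0.41, adjusted p = 0.124). That setting kept only the arrays whose number occurs in every group, so the arrays changed along with the model. Dropping dim probe sets, Hal and Pla2g4c among them, gave 0 by limma, with 1027 at an unadjusted p under 0.05. Leaving out 1 BALB/c array gave 2 calls each time (1 and 1).

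With 3 arrays a group, a gene near background, such as Il4, Il13, Epx, Trpa1 or Pla2g4c, or Clca1 in controls, cannot be shown to be absent or unchanged. The deposited values carry no detection call, and their normalization is not given in the sources used here, so differences hold for the deposited scale. Control 1 carries fat genes and lies near the MDI arrays in immediate early genes; gene lists whose counts change without it are given both ways. MDI 1, MDI 2, control 2 and control 3 ended 131, 129, 135 and 153 of the 240 called genes with a symbol when each was left out. Where a count moved, the cause was not tested.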
